A study of Mus musculus with 6 samples.

Results

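The genes of S phase and DNA replication are the set that a cell switches on when it leaves G1 and copies its genome. The set here was a list of 44 genes chosen by name, each represented by the probe set that named that gene alone and had the highest mean over all arrays. All 44 had such a probe set, among 19938 genes represented in the same way. Of the 44, 37 had a mean log2 signal above 5.81, the 40th percentile of probe sets, which served as the floor for dim genes, and were tested. The other 7 (Orc1, Gins1, Prim1, Pole, Tipin, Dut and Hells) lay below it and are described by their values.

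Expression was measured on 6 Affymetrix arrays in epithelial cells of the mouse colon, sorted as EpCAM-positive and CD45-negative. All samples came from wild-type male BALB/c mice aged 6 weeks that were starved for 36 h and dissected after 24 h of re-feeding. In 3 samples the mice were re-fed without treatment (re-fed), and in 3 they also received antibiotics while re-feeding (antibiotics). The labels name neither the antibiotics nor the number of mice behind a sample, and there is no group of fed or of starved mice without re-feeding, so a response to re-feeding itself cannot be read here.

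In the colon, cells divide in the lower crypt and stop dividing as they move up to the surface, so replication genes mark the dividing fraction of the epithelium. Replication starts at origins, where the origin recognition complex, Cdc6 and Cdt1 load the ring of Mcm2 to Mcm7. Cdc45 and the GINS complex then turn that ring into an active helicase. The clamp loader RFC places the PCNA ring on DNA, polymerases copy both strands, and ribonucleotide reductase and thymidylate synthase supply the nucleotides. Most of these genes are classical targets of E2F transcription factors, which are released from the retinoblastoma protein at the G1/S transition. In RNA from a whole sorted population, fewer dividing cells and less RNA per dividing cell cannot be told apart.

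Promoters of Mcm5, Mcm6 and Mcm7 are shown as examples that hold an E2F match. Such a match was found in 15 of the 36 members with a promoter sequence. Sequences running from 250 bases before the annotated start to 30 bases after it, from RefSeq on the assembly GRCm38.p6, are printed for Mcm5 and Mcm7, which had the largest differences of the set, and for Mcm6, which had the widest spread between antibiotics arrays. Capitals mark matches to an E2F site, searched as TTTCCCGC, TTTGGCGC, TTTCGCGC and TTTGCCGC on both strands.
Mcm5 (chr8:75109259-75109538, plus strand): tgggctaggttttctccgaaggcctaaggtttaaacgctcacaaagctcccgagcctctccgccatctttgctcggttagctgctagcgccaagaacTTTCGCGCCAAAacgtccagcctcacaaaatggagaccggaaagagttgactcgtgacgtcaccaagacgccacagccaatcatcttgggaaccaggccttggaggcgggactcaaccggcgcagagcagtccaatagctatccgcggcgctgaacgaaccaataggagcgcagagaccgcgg
Mcm6 (chr1:128359676-128359955, minus strand): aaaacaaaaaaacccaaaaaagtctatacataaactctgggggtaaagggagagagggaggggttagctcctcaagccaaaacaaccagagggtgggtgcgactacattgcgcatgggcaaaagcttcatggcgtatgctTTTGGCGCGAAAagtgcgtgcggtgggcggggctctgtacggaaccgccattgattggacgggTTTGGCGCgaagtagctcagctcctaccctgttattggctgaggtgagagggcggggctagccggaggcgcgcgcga
Mcm7 (chr5:138171854-138172133, minus strand): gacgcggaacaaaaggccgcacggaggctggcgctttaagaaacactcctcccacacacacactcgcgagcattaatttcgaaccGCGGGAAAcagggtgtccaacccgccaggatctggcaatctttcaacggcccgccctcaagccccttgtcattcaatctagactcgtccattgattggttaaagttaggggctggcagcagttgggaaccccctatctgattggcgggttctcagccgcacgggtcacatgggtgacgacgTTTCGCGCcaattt
In Mcm5 the capitals hold 2 overlapping matches, 1 on each strand, at -153 to -146 and -149 to -142 from the start. In Mcm6 a like pair lies at -110 to -103 and -106 to -99, and another match lies at -47 to -40. Mcm7 has matches at -165 to -158 and at 17 to 24, the second of which shares 1 base with a CCAAT box. Another annotated start of Mcm7 is not printed, and its window held no E2F match.

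Promoter windows of 300 bases (250 before and 50 after the start) were found for 36 of the 44 members, 43 windows in all since some genes have several starts. Of these, 15 windows (34.9%), each of a different gene, held an E2F match, against 744 of 32851 windows in the whole table (2.26%) and 3.68% of the 12233 windows of tested genes. By complex, a match was found for 4 of 5 MCM genes (Mcm3, Mcm5, Mcm6 and Mcm7, but not Mcm2). It was found for 3 of 6 genes of origin loading and firing (Orc1, Cdc6, Cdt1) and 3 of 5 polymerase genes (Pola1, Pold1, Pole2). So it was for 3 of 6 chromatin genes (Uhrf1, Dnmt1, Hells), 1 of 4 clamp and loader genes (Rfc3) and 1 of 3 fork, flap and ligase genes (Lig1). None of the 5 genes of nucleotide supply had one, and neither had the 2 genes of the G1/S switch with a window (E2f1 and Ccne1). Other replication genes, from a list of 53 that excludes the members, held a match in 16 of 50 windows (32.0%), and genes of G2/M and mitosis in 1 of 28 (3.57%). The CHR element of late cell cycle genes, searched as TTTGAA and the palindrome TTCGAA on both strands, was found in 6 of 43 member windows and in 22 of 28 G2/M windows (78.6%), where the whole table has 19.2% and the windows of tested genes 13.1%. The members' share thus lies near that of tested genes. CCAAT boxes lay in 23 of 43 member windows (53.5%), 22 of 28 G2/M windows (78.6%) and 37.4% of the table (36.6% for tested genes). Among tested members, the 13 with an E2F match had a median log2 difference between the groups of 0.26 (range -0.02 to 0.67), and the 19 with a window but no match had 0.18 (range -0.21 to 0.36). The ranges overlapped. A match describes letters in a window and does not show binding.

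**Figure D1:**
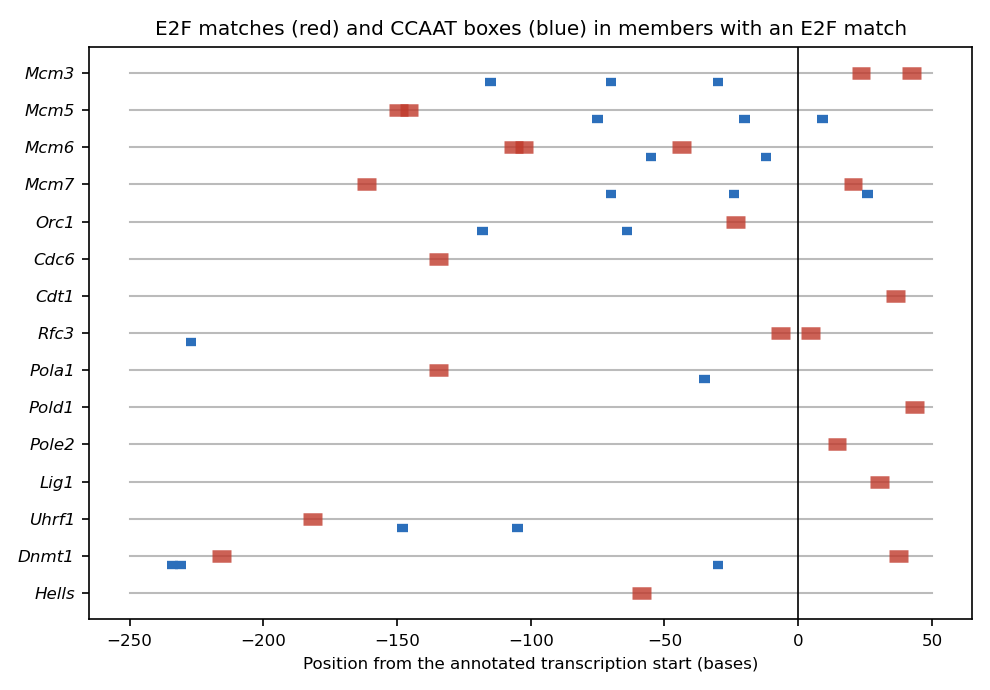
Position of E2F matches (red) and CCAAT boxes (blue) in the 15 member promoters with an E2F match, in bases from the annotated transcription start (vertical line), with each grey line spanning 250 bases before to 50 after. Matches lie on both sides of the start, and those of Mcm5, Mcm6 and Mcm7 include sites more than 100 bases before it.

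The next question is whether these genes differed in re-fed colon epithelium when antibiotics were given, a setting studied for the part of gut bacteria in epithelial proliferation after a fast. Values are log2 expression after quantile normalisation, and each difference is antibiotics minus re-fed. Of the 37 tested members, 29 lay above 0 and 8 below, with a median of 0.16, against 50.7% of the 12071 genes tested above 0, 49.3% below and a median of 0.003. No member passed limma's test (Benjamini-Hochberg adjusted p under 0.05, over all genes), where 0.058% of genes tested did (0.00828% higher, 0.0497% lower). The smallest adjusted p of a member was 0.195, for Mcm5. At an unadjusted p under 0.05 there were 4 members, all higher with antibiotics (Mcm5, Mcm7, Uhrf1 and Mcm10), where 5.3% of all genes were higher and 7.32% lower at that level. In 4 members the 3 antibiotics values all lay above the 3 re-fed values (Mcm5, Mcm7, Mcm10 and Tk1), 10.8% of the members, where 8.88% of all genes did so. In no member did they all lie below, where 10.7% of all genes did.

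The antibiotics arrays were uneven for these genes. Antibiotics replicate 3 was the highest of the 6 arrays in 27 of 37 members (73.0%), where it was highest in 22.7% of all genes. It lay above the whole re-fed range in 29 members (78.4%, against 30.7% of all genes), antibiotics replicate 1 did so in 18 (48.6%, against 29.8% of all genes) and antibiotics replicate 2 in 4 (10.8%, against 29.2%). Antibiotics replicate 2 lay within the re-fed range in 20 members and below it in 13, where it did so in 5261 and 3286 of the 12071 genes tested. The median deviation of the members from their own 6-array means was -0.14, -0.083 and -0.016 in re-fed replicates 1 to 3, 0.08 and -0.17 in antibiotics replicates 1 and 2, and 0.33 in antibiotics replicate 3. The lowest array of the set by this measure therefore belonged to the antibiotics group, as did the highest. Counted by gene, re-fed replicate 1 was the lowest array in 14 members and antibiotics replicate 2 in 10. They were lowest in 2287 and 1725 of the 12071 genes tested.

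Antibiotics replicate 3 and re-fed replicate 1 also stand apart in their deposited values. Any pair of the other 4 arrays has 372 to 435 distinct values in common, counted at any probe set. These 4 form what is here named the common run. Re-fed replicate 1 shares 154 to 198 with them. Antibiotics replicate 3 shares 42 to 67 with the others and holds 10829 distinct values where the others hold at least 34568. With fewer distinct values it has fewer to share, so its counts are not directly comparable with those of other pairs. This grouping was read from the values, not from a label. Within the common run (re-fed replicates 2 and 3, antibiotics replicates 1 and 2) the members' median was 0.047, with 22 above 0 and 15 below, where all genes tested had a median of 0.012 with 52.6% above and 47.4% below. There 6 members lay wholly above and 7 wholly below the re-fed arrays, with all genes at 26.7% and 23.9%. Without antibiotics replicate 3 alone the median was 0.046, without antibiotics replicate 2 it was 0.27, and without re-fed replicate 3 it was 0.25.

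**Figure D2:**
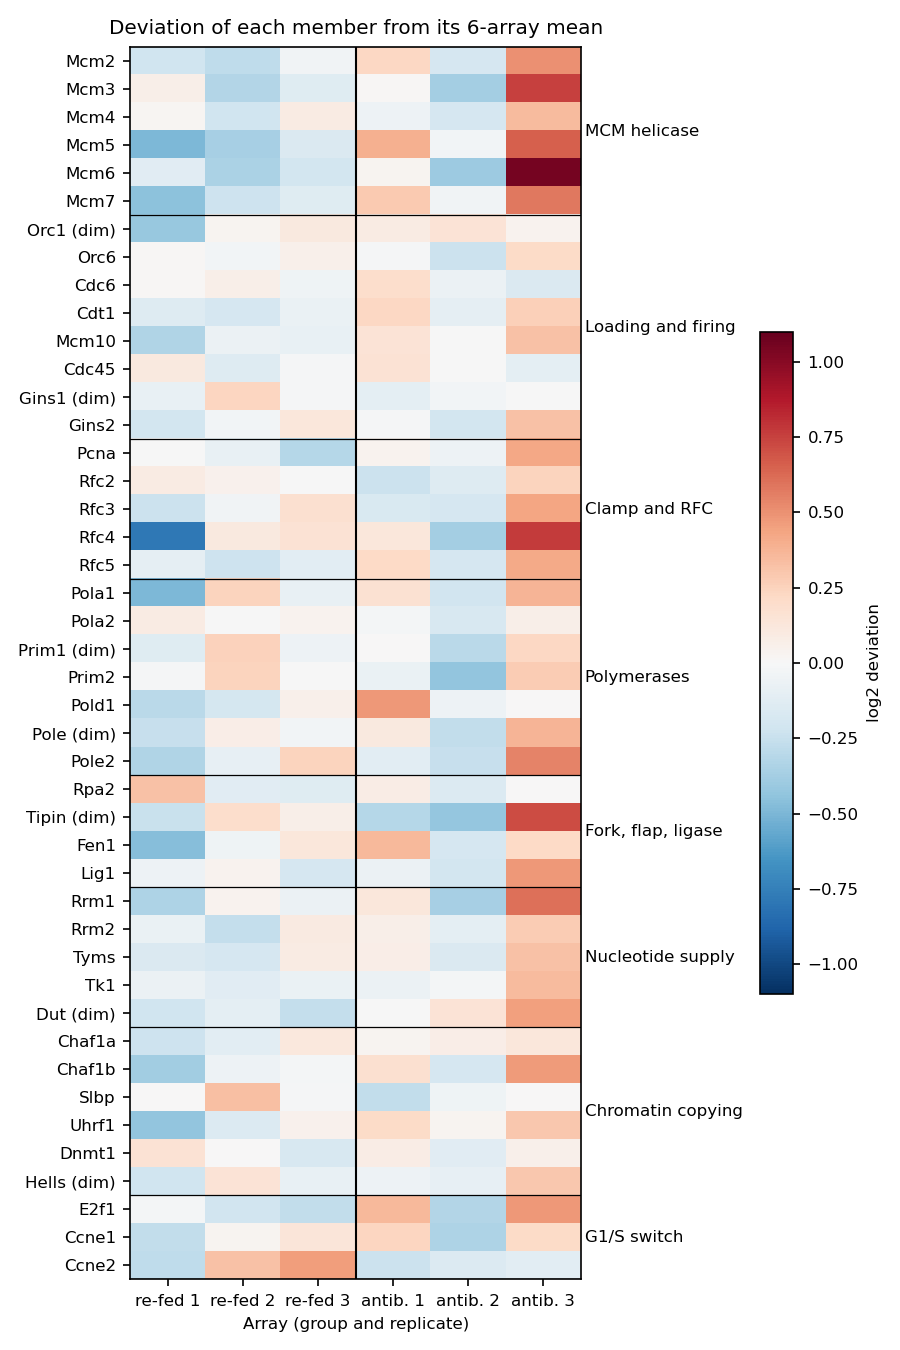
Deviation of each of the 44 members from its own 6-array mean (colour, log2 scale), by array, with the re-fed arrays left of the vertical line and the antibiotics arrays right of it; genes are ordered by complex and (dim) marks the 7 members below the floor. The column of antibiotics replicate 3 is red in most rows, while that of antibiotics replicate 2 is mostly blue.

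The MCM helicase had the largest median difference of the 8 groups of members, 0.41, and all 6 subunits lay above 0. Mcm5 stood at 7.28, 7.40 and 7.61 in re-fed replicates 1 to 3 and at 8.16, 7.73 and 8.42 in antibiotics replicates 1 to 3, so the lowest antibiotics value lay 0.12 above the highest re-fed value. The means were 7.43 ± 0.17 and 8.10 ± 0.35 (SD, n = 3 arrays each), a difference of 0.67 (SE 0.17, limma adjusted p = 0.195), or 1.6-fold. Within the common run the difference was 0.44 (SE 0.16, adjusted p = 0.215).

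Mcm7 stood at 7.43, 7.66 and 7.75 without antibiotics and at 8.17, 7.84 and 8.47 with them. Again the groups did not overlap, with a gap of 0.094. The difference was 0.55 (SE 0.16, limma adjusted p = 0.245), or 1.46-fold, and 0.31 (SE 0.13, adjusted p = 0.287) within the common run. For both genes the difference stayed above 0 in each of the 14 alternatives run, between 0.44 and 0.86 for Mcm5 and between 0.31 and 0.71 for Mcm7.

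The other 4 subunits of the same ring overlapped between the groups. Mcm2 stood at 7.05, 6.99 and 7.23 in the re-fed arrays and 7.49, 7.08 and 7.77 in the antibiotics arrays, where only antibiotics replicate 2 fell inside the re-fed range (0.36, SE 0.17, limma adjusted p = 0.417). Mcm6 stood at 6.42, 6.20 and 6.35 against 6.58, 6.14 and 7.60. Its difference of 0.45 (SE 0.30) rested on antibiotics replicate 3, without which it was 0.038. Mcm3 showed the same shape, with 6.04, 5.65 and 5.84 against 5.99, 5.60 and 6.73 (0.26, SE 0.25), and turned to -0.053 without antibiotics replicate 3. Mcm4 stood at 6.73, 6.49 and 6.80 against 6.66, 6.53 and 7.06, a difference of 0.07 (SE 0.15) that was -0.053 in the common run. The subunits of a ring that contains each of them once therefore did not have equal differences on these arrays, and the contrast between them was not tested. The MCM median was 0.13 in the common run, 0.12 without antibiotics replicate 3 and 0.62 without antibiotics replicate 2.

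**Figure D3:**
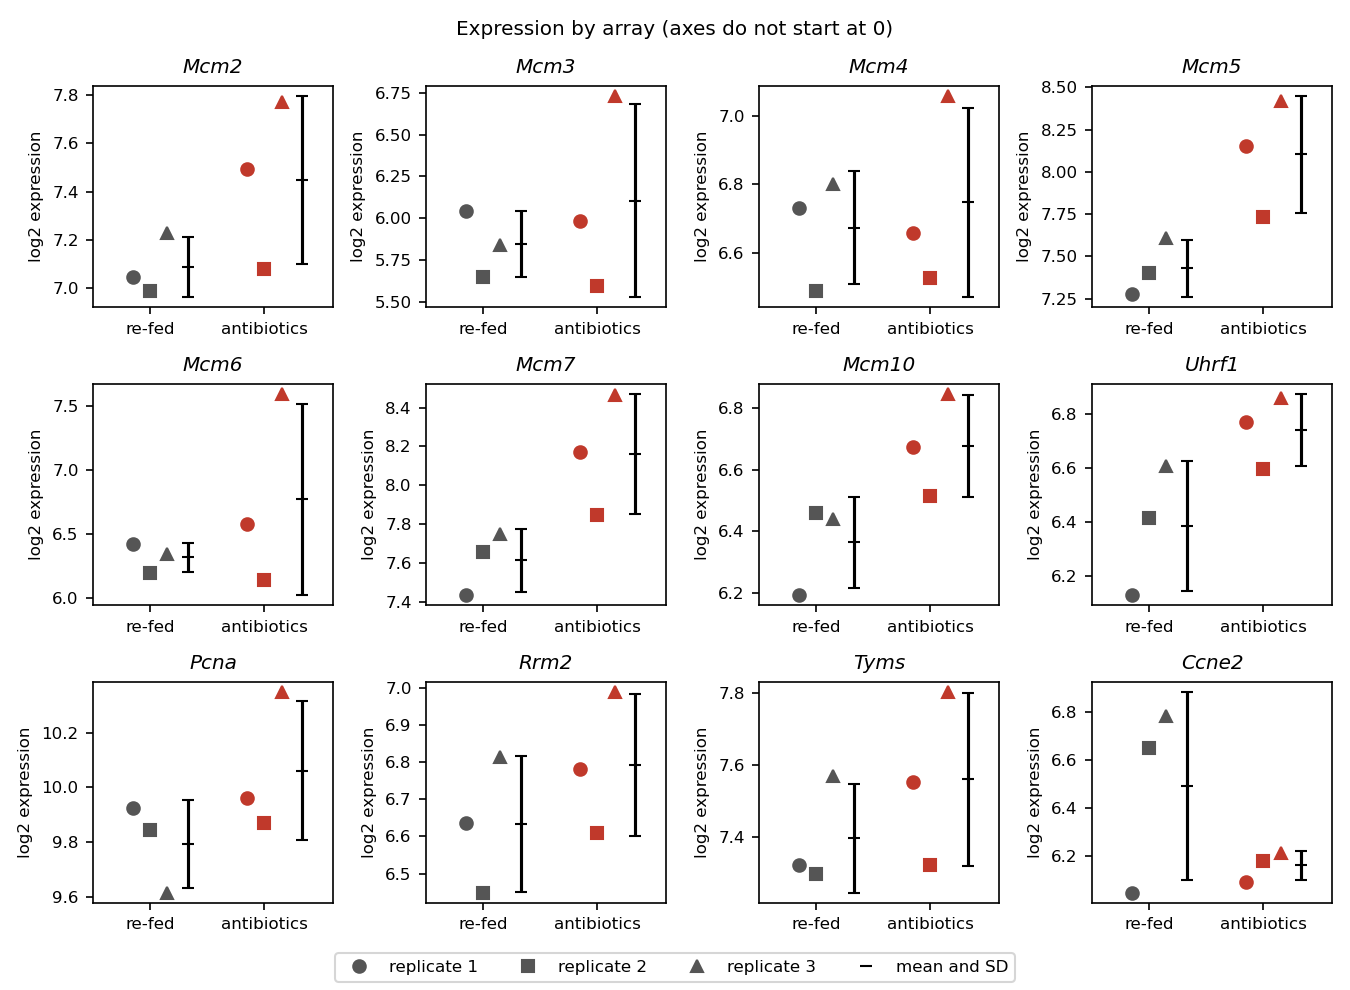
Log2 expression of 12 members on each array (grey, re-fed; red, antibiotics; circle, square and triangle for replicates 1, 2 and 3), with the mean and SD of 3 arrays beside the points; the axes do not start at 0. The groups separate in Mcm5, Mcm7 and Mcm10, and antibiotics replicate 3 is the highest point in every panel except that of Ccne2.

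Genes that load the helicase and fire origins had a median of 0.053 over 6 tested members, 4 above 0. The median was -0.026 with the deposited scaling, 0.10 in the common run, 0.14 without antibiotics replicate 2 and 0.095 without re-fed replicate 3. Over all genes tested, the median with the deposited scaling was -0.12. Mcm10, a factor that helps activate the loaded helicase, stood at 6.19, 6.46 and 6.44 without and 6.67, 6.51 and 6.85 with antibiotics, with no overlap and a gap of 0.056 (0.31, SE 0.13, limma adjusted p = 0.353). Cdt1, the licensing factor that brings the MCM ring to origins, stood at 7.27, 7.23 and 7.34 against 7.63, 7.31 and 7.67 (0.26, SE 0.12, adjusted p = 0.414). Antibiotics replicate 2 was the 1 array of its group inside the re-fed range. Cdc6, which works beside Cdt1 at the same step, differed by -0.02 (SE 0.12) and the origin subunit Orc6 by -0.03 (SE 0.13). The helicase cofactors Cdc45 and Gins2 differed by 0.03 (SE 0.12) and 0.07 (SE 0.15), and both turned below 0 with the deposited scaling (-0.0094 and -0.071). The dim members Orc1 and Gins1 differed by 0.18 and -0.09.

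For the sliding clamp, Pcna stood at 9.92, 9.84 and 9.62 in re-fed arrays and 9.96, 9.87 and 10.35 in antibiotics arrays. Antibiotics replicate 2 fell among the re-fed values (0.27, SE 0.15, limma adjusted p = 0.481). Pcna has 2 probe sets with nearly the same mean over 6 arrays (9.9274 and 9.9277). Both gave 0.27, and whether they are separate readings was not tested. The difference was 0.12 without antibiotics replicate 3, 0.18 without re-fed replicate 3 and 0.080 with the deposited scaling. Rfc5, a small subunit of the clamp loader, stood at 8.89, 8.76 and 8.88 against 9.21, 8.81 and 9.41 (0.30, SE 0.15, adjusted p = 0.448). Rfc4, another loader subunit, ranged from 6.42 to 7.36 in re-fed arrays and from 6.83 to 7.97 with antibiotics, and its difference of 0.35 (SE 0.31) was above 0 in 13 of 14 alternatives and -0.26 in the common run. It was 0.040 without re-fed replicate 1 and 0.051 without antibiotics replicate 3. Rfc3 (0.06, SE 0.18) and Rfc2 (-0.09, SE 0.14) stood at -0.25 and -0.21 in the common run. Rfc3 also turned below 0 with the deposited scaling (-0.044) and with median centring (-0.0055). Over all genes tested, the medians with these scalings were -0.12 and -0.080. The median of the 5 genes was 0.27 over 6 arrays and -0.21 in the common run, and without re-fed replicate 1 or antibiotics replicate 3 it was 0.040 or 0.051, and without re-fed replicate 3 it was 0.18.

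Polymerase genes went both ways, with 3 of 5 tested members above 0 and a median of 0.12. Pold1, the catalytic subunit of the lagging-strand polymerase delta, stood at 6.87, 6.97 and 7.22 without and 7.64, 7.11 and 7.17 with antibiotics, so that antibiotics replicate 1 alone exceeded the re-fed arrays (0.29, SE 0.16, limma adjusted p = 0.487). Pola1, the catalytic subunit of the primase-polymerase alpha, stood at 5.36, 6.10 and 5.77 against 6.03, 5.64 and 6.23 (0.22, SE 0.20, adjusted p = 0.681) and at -0.10 in the common run. The subunits Pola2 (-0.09, SE 0.10) and Prim2 (-0.15, SE 0.17) of that same complex lay below 0. Pole2, of the leading-strand polymerase epsilon, differed by 0.12 (SE 0.22) and by -0.27 in the common run. The dim members Prim1 and Pole differed by -0.04 and 0.14. The group's median was -0.12 in the common run and -0.13 without antibiotics replicate 3.

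At the fork and in lagging-strand repair, Fen1, the nuclease that trims Okazaki fragments, stood at 5.40, 5.83 and 6.00 without and 6.23, 5.69 and 6.09 with antibiotics (0.26, SE 0.18, limma adjusted p = 0.581). Lig1, the ligase that joins them, stood at 6.85, 6.94 and 6.72 against 6.84, 6.70 and 7.38 (0.13, SE 0.17, adjusted p = 0.783), and antibiotics replicate 3 was the 1 array outside the re-fed range on the high side. The single-strand binding subunit Rpa2 differed by -0.04 (SE 0.14). Tipin, which is dim and helps to stabilise forks, differed by -0.01, with 5.50 in antibiotics replicate 3 against 4.36 to 4.97 in the other arrays.

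All 4 tested genes of nucleotide supply lay above 0, between 0.16 and 0.24, and antibiotics replicate 3 was the highest array in each of them. Their median was 0.17, and it was 0.044 without antibiotics replicate 3, 0.27 without antibiotics replicate 2 and 0.031 in the common run, where 3 of 4 lay above 0. Tk1, the thymidine kinase of the salvage pathway, stood at 7.02, 6.96 and 7.01 without and 7.02, 7.06 and 7.44 with antibiotics. Its groups did not overlap, but the gap was 0.0054 (0.18, SE 0.13, limma adjusted p = 0.592), and its second, dimmer probe set gave 0.27. Without antibiotics replicate 3 its difference was 0.046, and in the common run 0.057. Rrm2, the regulated subunit of ribonucleotide reductase, stood at 6.64, 6.45 and 6.81 against 6.78, 6.61 and 6.99 (0.16, SE 0.14, adjusted p = 0.653). Thymidylate synthase, Tyms, stood at 7.32, 7.30 and 7.57 against 7.55, 7.32 and 7.80 (0.16, SE 0.14, adjusted p = 0.657) and at 0.0042 in the common run. Rrm1, the large subunit of the reductase, differed by 0.24 (SE 0.22) and by -0.11 in the common run.

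Dut, the dUTPase that keeps uracil out of DNA, is described here because its groups separated, which was seen in its values. It is dim and was not among the genes tested. Its arrays stood at 5.48, 5.59 and 5.44 without and 5.70, 5.85 and 6.15 with antibiotics, a difference of 0.40 with a gap of 0.11. In the fit with no filter on dim genes its unadjusted p was 0.0161 and its limma adjusted p 0.485, where 7.23% of 19938 genes separated upward.

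Among genes that copy chromatin, Uhrf1, which recognises newly replicated, hemimethylated DNA, stood at 6.13, 6.41 and 6.61 without and 6.77, 6.59 and 6.86 with antibiotics. Antibiotics replicate 2 lay just under re-fed replicate 3 (0.36, SE 0.14, limma adjusted p = 0.344). Dnmt1, the methyltransferase that Uhrf1 brings to those sites, differed by 0.01 (SE 0.12). It turned to -0.12 with the deposited scaling and -0.078 with median centring, where the medians over all genes tested were -0.12 and -0.080. Chaf1b, a subunit of the histone chaperone CAF-1, stood at 6.36, 6.69 and 6.73 against 6.92, 6.56 and 7.22 (0.31, SE 0.17, adjusted p = 0.491), and its partner Chaf1a differed by 0.15 (SE 0.12). Slbp, which binds the stem-loop of histone mRNA, lay below 0 (-0.21, SE 0.13), and its other probe set gave -0.05. The dim helicase gene Hells differed by 0.10.

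The switch from G1 to S is represented by E2f1 and the cyclin E genes Ccne1 and Ccne2. E2f1 stood at 5.96, 5.77 and 5.71 without and 6.34, 5.65 and 6.45 with antibiotics (0.33, SE 0.19, limma adjusted p = 0.503), with antibiotics replicate 2 below every re-fed array. Ccne1 differed by 0.08 (SE 0.17) and by -0.13 in the common run. Ccne2 had the lowest difference of the set (-0.33, SE 0.18, adjusted p = 0.467). It stood at 6.04, 6.65 and 6.78 in re-fed replicates 1 to 3 and at 6.09, 6.18 and 6.21 with antibiotics, so re-fed replicate 1 alone lay low in its group. In the common run Ccne2 differed by -0.58 (SE 0.11, adjusted p = 0.0728), the smallest adjusted p of a member there. No member passed in the common run, where 0.447% of genes tested did (0.108% higher, 0.34% lower), and 4 had an unadjusted p under 0.05: Mcm5 and Mcm7 higher, Prim2 (-0.37) and Ccne2 lower. The background at that level was 8.13% higher and 9.25% lower.

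**Figure D4:**
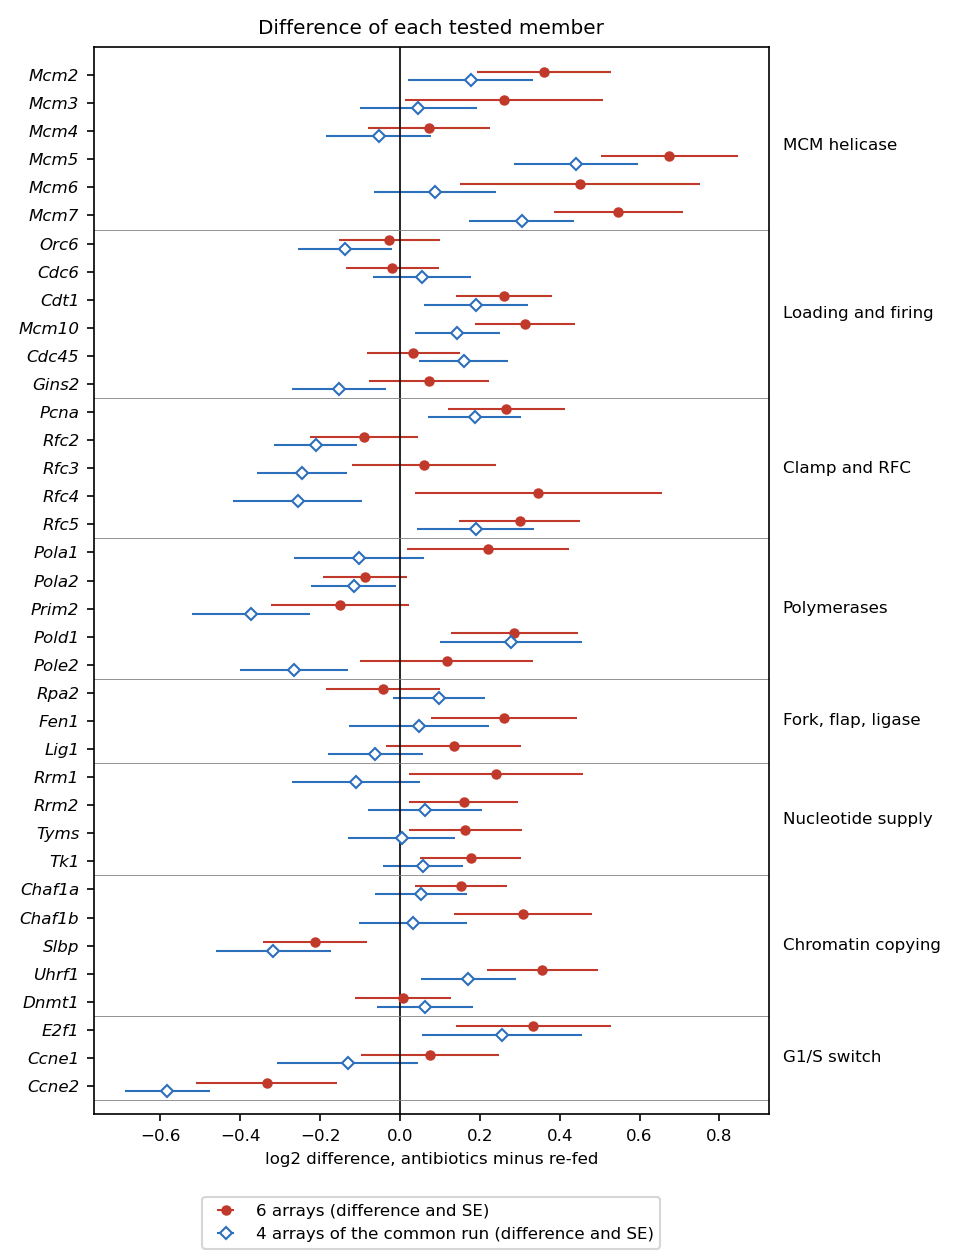
Log2 difference, antibiotics minus re-fed, with its standard error for the 37 tested members, from 6 arrays (red circles) and from the 4 arrays of the common run (blue diamonds), grouped by complex. Mcm5 and Mcm7 lie above 0 in both, and Ccne2 lies below 0 in both. Most members, these and the RFC and polymerase genes included, move left in the common run.

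Of 53 other replication genes, 51 had a probe set of their own and 43 were tested, with 24 above 0, 19 below and a median of 0.051. None passed, and 2 lay wholly above and 6 wholly below the re-fed arrays (with all genes at 8.88% and 10.7%). Samhd1, which breaks down deoxynucleotides and so opposes the supply genes above, stood at 10.72, 10.41 and 10.35 without and 9.33, 9.92 and 9.98 with antibiotics (-0.75, SE 0.18, limma adjusted p = 0.171). It is also abundant in leukocytes. Cdk2, the kinase partner of cyclin E, stood at 7.62, 7.60 and 7.27 against 7.04, 6.89 and 7.24 (-0.44, SE 0.14, adjusted p = 0.258), also with no overlap.

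Shmt1, which feeds one-carbon units into thymidylate synthesis, stood at 7.22, 7.36 and 7.32 without and 7.60, 7.56 and 7.69 with antibiotics (0.32, SE 0.10, limma adjusted p = 0.262). The groups did not overlap. Mcmbp, a binding partner of MCM proteins, went the other way, from 10.03 ± 0.043 to 9.77 ± 0.081 (SD, n = 3 arrays each; -0.26, SE 0.10, adjusted p = 0.336). In the common run the median of these genes was -0.10 and 1 passed, Rpa3, named after its values were seen. Rpa3, the smallest subunit of the single-strand binding protein RPA, differed there by -0.84 (SE 0.12, adjusted p = 0.0417) and over 6 arrays by -0.39 (SE 0.24, adjusted p = 0.519).

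Genes of G2/M and mitosis, which a dividing cell uses after replication, were also highest in antibiotics replicate 3. Their median difference was 0.19 over 21 tested genes, 19 above 0, and 0.0051 in the common run; without antibiotics replicate 3 it was 0.077 and without re-fed replicate 1 it was 0.074. Without re-fed replicate 2 or antibiotics replicate 2 it was 0.30 or 0.39. None passed the test. Antibiotics replicate 3 was the highest array in 16 of the 21 (76.2%). Their median deviation was -0.33 in re-fed replicate 1, the lowest of the 6, and 0.44 in antibiotics replicate 3. Cyclin A2, Ccna2, which acts in both S and G2 phase, stood at 7.64, 8.06 and 7.76 without and 8.45, 8.02 and 8.89 with antibiotics (0.63, SE 0.20, limma adjusted p = 0.274). The centromeric histone Cenpa (0.36, SE 0.14) and the anaphase activator Cdc20 (0.37, SE 0.15) had groups that did not overlap. These were 2 of the 21 genes (9.52%), near the 8.88% of all genes tested that separated upward. At an unadjusted limma p under 0.05, 4 of the 21 were higher (19.0%) and 0 lower. Of all genes tested, 5.3% were higher and 7.32% lower at that level. Mki67, the classical proliferation marker, stood at 7.56, 8.10 and 7.80 against 8.09, 8.03 and 8.84 (0.50, SE 0.22, adjusted p = 0.387).

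**Figure D5:**
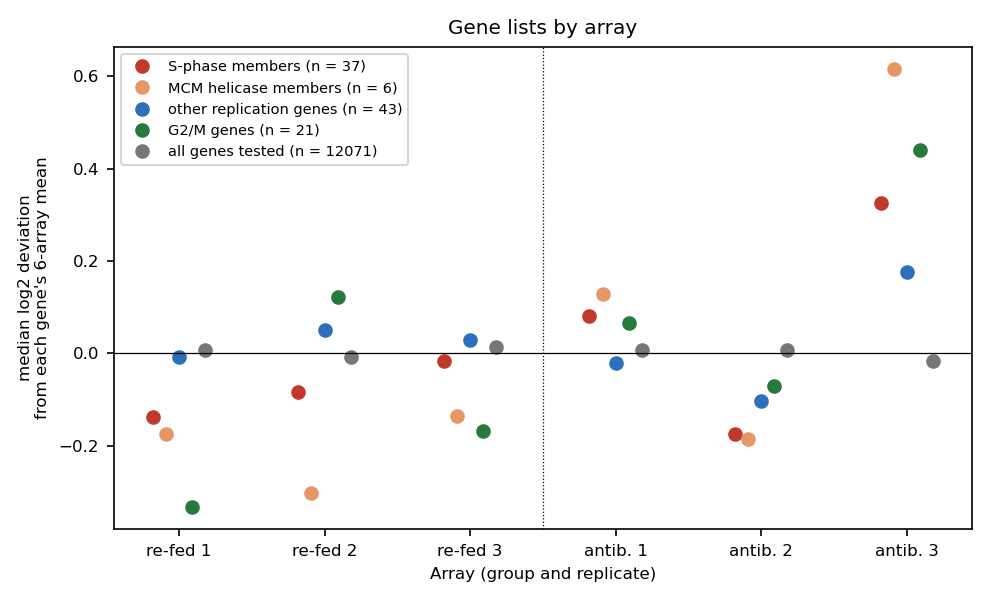
Median log2 deviation of each gene list from its genes' own 6-array means, by array, for the S-phase members, the MCM subunits alone, other replication genes, G2/M genes and all genes tested. In antibiotics replicate 3 the S-phase members stand at 0.33 and the G2/M genes at 0.44, while antibiotics replicate 2 is below 0 for all 4 lists and all genes together stay near 0.

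Markers were read beside these values. Epcam stood at 12.16 ± 0.11 and 12.12 ± 0.065 (log2 expression, SD, n = 3 arrays each) without and with antibiotics, and Ptprc, the CD45 gene, lay below the floor on average (5.30 to 5.54). Of the marker lists, 8 of 9 genes of T cells and intraepithelial lymphocytes, 4 of 5 of B and plasma cells, 6 of 8 of myeloid cells and 6 of 10 of stroma and endothelium were dim. Their summed levels (log2 of summed intensities) spanned 8.37 to 8.55 re-fed and 8.33 to 8.53 with antibiotics for T cells, 7.36 to 7.57 and 7.61 to 7.65 for B cells, 8.95 to 9.28 and 9.11 to 9.34 for myeloid cells, and 9.15 to 9.37 and 9.22 to 9.35 for stroma. The B cell list therefore separated by a small margin, and its part in the result was not tested. Mature colonocyte markers summed to 16.23 to 16.38 re-fed and 16.07 to 16.22 with antibiotics, which separates the groups by a narrow margin, goblet markers to 15.54 to 15.73 and 15.39 to 15.59, and crypt-base markers to 10.98 to 11.46 and 11.20 to 11.61. Pan-epithelial markers summed to 15.56 to 15.60 and 15.45 to 15.52, also without overlap, and the part of these lists was not tested either. Gene by gene, 7 of the 10 crypt-base markers were tested, since Lgr5, Ascl2 and Olfm4 were dim. The median difference of the 7 was 0.31, above that of the replication genes, with 5 above 0. At an unadjusted limma p under 0.05, 4 were higher, where 5.3% of all genes tested were. Cdca7, 1 of these 4, is also on the list of other replication genes. Sox9 (-0.31) and Axin2 (-0.07, and -0.46 in the common run) lay below 0. The 12 mature colonocyte markers had a median of -0.18, with 9 below 0 and 5 wholly below the re-fed arrays (41.7%, against 10.7% of all genes). In the common run the medians of these lists were 0.22 and -0.23. Over 6 arrays no marker of either list passed limma's test. In the common run no crypt-base marker passed, and 1 of the 12 mature colonocyte markers did, on the lower side (limma adjusted p = 0.0156). There 0.34% of all genes tested passed on that side. Antibiotics replicate 3, the highest array for replication genes, also held the highest crypt-base sum (11.61). By that sum the order of the other arrays differed. Re-fed replicate 1, where the members' median deviation was -0.14, came next at 11.46, above antibiotics replicates 1 and 2 (11.40 and 11.20). Sox9 stood at 10.02 in re-fed replicate 1 and at 8.72 to 9.33 in the others. By median deviation, the measure used for the members, the 7 tested crypt-base markers ordered differently. They stood at -0.18, -0.064 and -0.26 in re-fed replicates 1 to 3 and at 0.11, -0.039 and 0.36 with antibiotics. By this measure the antibiotics arrays all lay above the re-fed arrays. The part of these markers in the result was not tested.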

How the data were processed

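The authors deposited RMA values on a log2 scale for 35557 probe sets and 6 arrays, per the submitters' processing notes. Its array medians differ (5.63 to 6.17), so quantile normalisation was applied to those 23410 probe sets that GEO's platform annotation links to any gene. Of all probe sets, 21789 named 1 gene, 1621 several and 12147 none, and only the first were used. Of these, 21698 were matched by Entrez identifier to RefSeq GRCm38.p6, and 0 symbols changed.

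Each of 19938 genes took its probe set with the highest mean, and the 12071 with a mean of at least the 40th percentile of probe sets (5.81) entered a two-sided moderated test without a block (limma 3.58.1, R 4.3.3), with Benjamini-Hochberg adjustment over all of them and a threshold of 0.05. The procedure was tested on simulated data. Nothing states that samples came from separate mice beyond the label biological replicate, so p-values measure the spread between these samples, and 3 arrays per group limit the precision. No list test was run.

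The members, gene lists, scaling and common run were chosen with earlier results of these data known. Named with values on each array were Mcm2 to Mcm7, Pcna, Rrm2, Tyms, Uhrf1, E2f1, members whose groups do not overlap and the 2 with the smallest p per complex. Of the other replication and the G2/M lists, the 4 genes with the smallest p were named, with Epcam and Ptprc beside them. Among crypt-base markers, Sox9, Axin2, Cdca7 and the dim ones were named after their values were seen. Cdca7 is in both the crypt-base and the other replication lists. Alternatives were the deposited scaling, median centring, other filters, the common run, array weights, a replicate block, the mean of a gene's probe sets and each array left out.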

Additional observations from a re-analysis of the deposited data

How the results depend on the processing

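Of the 37 tested members, 20 kept their direction in each of up to 14 alternatives that tested them, and 17 reversed in at least 1. No member was called in 13 of the 14 alternatives. With array weights 4 of the 37 were called (Mcm5, Mcm7 and Pold1 higher, Ccne2 lower). That fit called 1169 of the 12071 genes tested (502 higher, 667 lower), a share close to that of the members. Over all genes the count of 7 became 45 with the deposited scaling, 62 with median centring, 2 with no filter, 43 with the stricter filter, 54 in the common run and 0 to 11 with 1 array left out (0 without antibiotics replicate 1, where 1040 genes had an unadjusted p under 0.05). Over all genes the median difference was -0.12 with the deposited scaling and -0.08 with median centring, where 67.6% and 70.3% of members lay above 0, against 27.6% and 34.4% of all genes. The replicate block left the count over all genes at 7 and that of members at 0. Once each gene's group mean was removed, same-numbered arrays of the groups correlated at 0.021, -0.034 and -0.22 over the genes tested. Differently numbered arrays correlated at -0.17 to 0.24. No same-numbered pair had the highest value, and whether the numbers mark a pairing was not tested.

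The median of RFC and Pcna moved to -0.21 in the common run and lay between 0.040 and 0.36 with 1 array left out. That of the polymerases moved to -0.12 in the common run (-0.13 to 0.27 with 1 array left out), that of fork, flap and ligase genes lay between -0.054 and 0.27 with 1 array left out, and that of chromatin genes moved to -0.10 with the stricter filter, which tests fewer genes. That of other replication genes moved to -0.072 with the deposited scaling and -0.10 in the common run (-0.053 to 0.075 with 1 array left out).

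Reversals in the common run were Mcm4 (-0.053), Cdc6 (0.055), Gins2 (-0.15), Rfc3 (-0.25), Rfc4 (-0.26), Pola1 (-0.10), Pole2 (-0.27), Rpa2 (0.098), Lig1 (-0.061), Rrm1 (-0.11) and Ccne1 (-0.13). With array weights they were Cdc6 (0.11), Gins2 (-0.013), Rfc3 (-0.14), Pole2 (-0.084) and Rpa2 (0.11), with the deposited scaling Cdc45 (-0.0094), Gins2 (-0.071), Rfc3 (-0.044) and Dnmt1 (-0.12), and with median centring Gins2 (-0.033), Rfc3 (-0.0055) and Dnmt1 (-0.078). With 1 array left out, differences reversed in the ranges of Mcm3 (-0.053 to 0.51), Mcm4 (-0.081 to 0.18), Orc6 (-0.14 to 0.085), Cdc6 (-0.12 to 0.055), Cdc45 (-0.038 to 0.097), Gins2 (-0.069 to 0.19), Rfc2 (-0.23 to 0.0081), Rfc3 (-0.14 to 0.17), Pole2 (-0.13 to 0.27), Prim2 (-0.33 to 0.029), Rpa2 (-0.12 to 0.11), Lig1 (-0.068 to 0.27), Rrm1 (-0.00024 to 0.48), Dnmt1 (-0.077 to 0.089) and Ccne1 (-0.042 to 0.26). The cause of these changes was not tested.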
